A study of Mus musculus with 6 samples.

Results

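The 10 genes described here mark neutrophils, the short-lived granulocytes of the innate immune system, and were followed in liver RNA of mice with toxic fibrosis. The 10 genes were chosen by symbol, as rows of the count table whose Ensembl identifier carries that symbol: Lcn2, S100a8, S100a9, Trem1, Csf3r, Cxcr2, Retnlg, Ly6g, Ngp and Mpo. All 10 were found, each as 1 row among 41388 gene identifiers. The libraries came from BALB/c mice in which carbon tetrachloride (CCl4), a hepatotoxin, had been given for 5 weeks. The AL/NP group (3 libraries) also received nanogels loaded with the bisphosphonate alendronate at 4 mg/kg, injected 2 times per week over the last 2 weeks, and the sample titles add the word high. The control group (3 libraries) had the same CCl4 course and is labelled untreated, although the text of the treatment label is the same in all 6 samples. No healthy liver, empty nanogel or free drug was among these samples, age and sex are not given, and drug, carrier and injection cannot be told apart. The labels do not state that each library is a separate animal, so the p-values measure the spread between these libraries.

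Neutrophils are built in the bone marrow in stages. Precursors first make the proteins of primary (azurophil) granules such as myeloperoxidase, then those of specific granules such as lactoferrin and neutrophilic granule protein, and shut these genes down as they mature. Circulating cells keep the calcium-binding proteins S100a8 and S100a9 and the receptors for granulocyte colony-stimulating factor and CXC chemokines. Several of these genes are not private to neutrophils: hepatocytes make lipocalin-2 in inflammation, and monocytes share S100a8, S100a9, Trem1 and Csf3r. In whole-tissue RNA, more cells of a type and more RNA per cell cannot be told apart.

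Each library held between 30554483 and 39838428 counts. Levels are CPM (a count scaled to the size of its library) scaled by TMM, a factor that corrects for differences in composition; 3 counts, taken as the least that can be told from none, corresponded to 0.0826 to 0.104 CPM. These limits cover counting error only. Control replicate 3 stood apart, with a TMM factor of 0.809 against 0.937 to 1.13 elsewhere and 26.7% of counts from mitochondrially encoded genes against 11.96% to 19.8%. Hepatocyte markers were abundant in every library, as the tissue label requires, and their sum was lower in every AL/NP library (56827, 49604 and 57953 CPM in replicates 1 to 3) than in any control (59305, 58748 and 76895 CPM). That sum mostly reflects Alb. Of the 6 genes 0 were called and 5 had a log2 fold change below 0. Alb (-0.234, SE 0.242, edgeR) and Ttr (-0.822, SE 0.217) were lower without overlap, and Serpina1a (0.704, SE 0.233) was higher without overlap. The neutrophil label rests on thin counts. Ly6g, the most specific of the 10, had 16 counts in all 6 libraries together, Mpo had 109 and Ngp had 144.

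Lcn2 encodes lipocalin-2, an iron-withholding protein stored in specific granules, and was the most abundant of the 10. Lcn2 (chromosome 2, 32384633 to 32388252, minus strand, protein coding) measured 272, 227 and 180 CPM in control replicates 1 to 3 and 449.7, 769 and 885 CPM in AL/NP replicates 1 to 3. Every AL/NP library lay above every control. The means were 226 ± 46.3 CPM (SD, n = 3) in controls and 701 ± 225 CPM with AL/NP, a ratio of 3.10. The log2 fold change was 1.63 (SE 0.276), with an adjusted p of 0.0783 in edgeR's quasi-likelihood test over 15939 genes, which misses the threshold of 0.05. DESeq2, run beside it, gave an adjusted p of 2.16e-06.

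Ngp and Mpo are granule genes of immature cells, and both were measured by few counts. Ngp (chromosome 9, 110419747 to 110423012), a cathelicidin relative of specific granules, had 4, 5 and 7 counts in control replicates 1 to 3 and 6, 38 and 84 counts in AL/NP replicates 1 to 3. Mpo (chromosome 11, 87793581 to 87804413), the peroxidase of azurophil granules, had 4, 1 and 4 counts in controls and 4, 31 and 65 with AL/NP. AL/NP replicate 1 was within 1 count of the highest control for both genes, and AL/NP replicates 2 and 3 were above all controls. In CPM, Ngp measured 0.209, 1.05 and 2.44 with AL/NP against 0.115 to 0.217 in controls, and Mpo measured 0.139, 0.853 and 1.89 against 0.0276 to 0.124. Because only 2 libraries reached the minimum of 0.303 CPM that had to be met in 3, neither gene entered the main test. Without that filter, edgeR gave log2 fold changes of 2.97 for Ngp (SE 0.728, adjusted p = 0.0481) and 3.41 for Mpo (SE 0.8296, adjusted p = 0.0472), with 1.27% of 29551 genes called higher in that fit. An antisense gene, Gm11505, shares 512 exonic bases with Mpo and had 0 counts in every library.

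**Figure D1:**
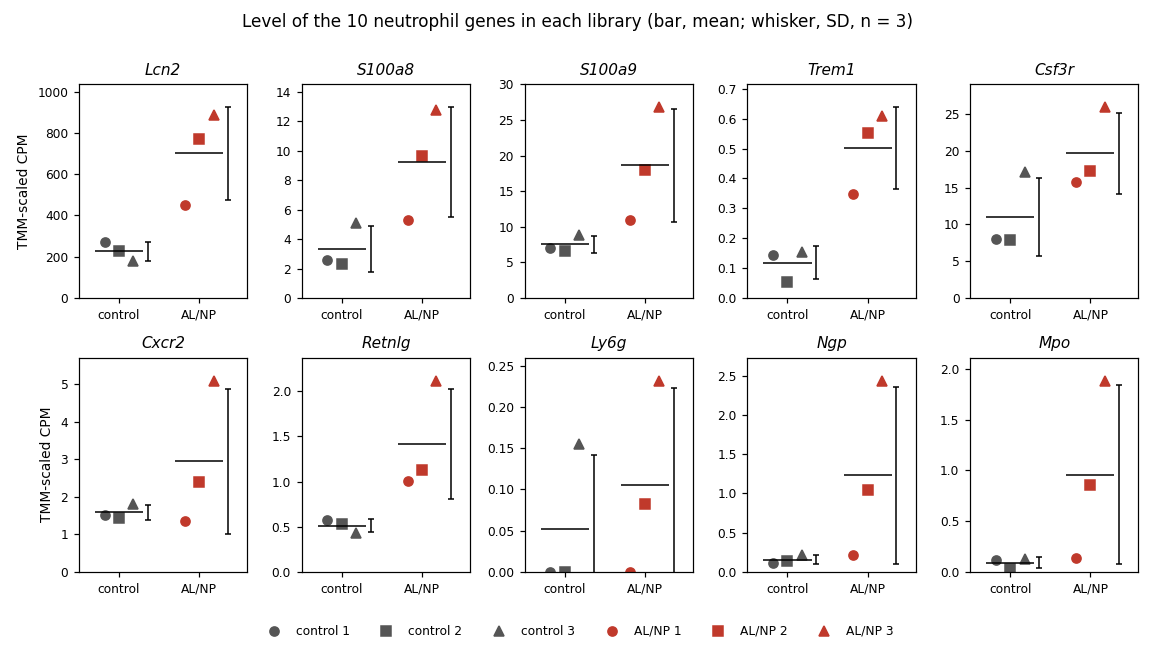
TMM-scaled CPM (vertical axes, each from 0) of the 10 genes in the 3 control libraries (grey) and the 3 AL/NP libraries (red), with the mean as a bar and the SD as a whisker (n = 3). AL/NP replicate 3 (red triangle) is the highest point in every panel, and AL/NP replicate 1 (red circle) is no higher than the highest control for Csf3r, Cxcr2, Ly6g and Ngp and slightly above it for S100a8 (5.32 against 5.09 CPM) and Mpo (0.139 against 0.124 CPM).

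The stretches of 250 bases before the RefSeq start site are shown for the 3 most abundant of the 10 genes per kilobase of exon (Lcn2, S100a9, S100a8) and for the pair of granule genes of immature cells (Ngp, Mpo), a choice made after their values were seen. They run 5′ to 3′ on the gene's strand, in build GRCm38.p6, and capitals mark matches on either strand to the motifs of C/EBP factors, which drive granulocyte maturation (TTNNGNAA), and of PU.1, a myeloid master regulator (GAGGAAGT). Their positions are chr2:32387740-32387989 (minus strand) for Lcn2, chr3:90668821-90669070 (plus) for S100a8, chr3:90695722-90695971 (minus) for S100a9, chr9:110419558-110419807 (plus) for Ngp and chr11:87793534-87793783 (plus) for Mpo.
Lcn2: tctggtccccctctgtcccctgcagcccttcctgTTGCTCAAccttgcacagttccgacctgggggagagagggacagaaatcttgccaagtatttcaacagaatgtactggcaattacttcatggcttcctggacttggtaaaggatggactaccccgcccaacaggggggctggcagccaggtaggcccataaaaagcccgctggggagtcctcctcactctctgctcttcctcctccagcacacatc
S100a8: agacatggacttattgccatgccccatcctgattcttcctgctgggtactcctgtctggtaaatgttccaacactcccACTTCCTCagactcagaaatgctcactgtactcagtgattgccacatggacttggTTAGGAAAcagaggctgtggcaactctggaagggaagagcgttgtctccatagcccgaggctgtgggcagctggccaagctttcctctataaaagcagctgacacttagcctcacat
S100a9: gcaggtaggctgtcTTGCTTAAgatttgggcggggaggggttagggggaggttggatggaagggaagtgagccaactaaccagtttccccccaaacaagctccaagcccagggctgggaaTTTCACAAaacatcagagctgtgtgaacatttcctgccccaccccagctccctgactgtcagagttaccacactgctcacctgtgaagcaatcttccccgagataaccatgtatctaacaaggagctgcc
Ngp: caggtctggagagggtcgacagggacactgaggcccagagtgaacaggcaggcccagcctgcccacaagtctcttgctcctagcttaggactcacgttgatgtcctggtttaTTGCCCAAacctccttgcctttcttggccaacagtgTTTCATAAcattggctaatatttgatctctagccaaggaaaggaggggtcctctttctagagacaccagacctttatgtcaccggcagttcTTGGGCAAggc
Mpo: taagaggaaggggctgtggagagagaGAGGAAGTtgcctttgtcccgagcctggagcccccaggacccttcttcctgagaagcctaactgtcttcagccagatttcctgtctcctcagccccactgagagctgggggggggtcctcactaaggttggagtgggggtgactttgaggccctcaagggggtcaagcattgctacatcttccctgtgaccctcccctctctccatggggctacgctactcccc

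The C/EBP letters occurred 1 time in the Lcn2 window, 1 time in that of S100a8, 2 times in that of S100a9, 3 times in that of Ngp and 0 times in that of Mpo. The PU.1 letters occurred 1 time each in the windows of S100a8 and Mpo. No matches overlapped. Of all 32851 RefSeq windows of this length, 36.8% held the C/EBP letters and 2.44% the PU.1 letters, so a C/EBP match is common. NF-kB and STAT motifs (the latter TTCNNNGAA) were also searched and were in none of these 5 windows, against 7.25% and 7.02% of all windows; among the windows of the other genes, that of Csf3r held 1 NF-kB match and that of Trem1 held 1 STAT match. RefSeq and the GENCODE gene coordinates given here place some starts differently. By the GENCODE coordinates the Lcn2 window lies inside the gene, and those of S100a8, Ngp and Mpo run into it. The S100a9 window lies before the gene. A match can therefore lie in transcribed sequence. These are matches of letters and not measured binding.

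S100a8 and S100a9 encode the subunits of calprotectin, a zinc- and manganese-binding dimer that fills the neutrophil cytosol, and lie next to each other on chromosome 3. S100a8 (90668978 to 90670035) measured 2.56, 2.29 and 5.09 CPM in control replicates 1 to 3 and 5.32, 9.63 and 12.8 CPM in AL/NP replicates 1 to 3. The groups did not overlap, but control replicate 3 and AL/NP replicate 1 were close. The log2 fold change was 1.48 (SE 0.393, adjusted p = 0.1396, edgeR; 0.0056 in DESeq2), and the means were 3.31 ± 1.55 and 9.24 ± 3.74 CPM (SD, n = 3). S100a9 (90692632 to 90695721) measured 7.06, 6.66 and 8.91 CPM in controls and 10.9, 18.03 and 26.9 CPM with AL/NP. It did not overlap either, with a log2 fold change of 1.30 (SE 0.301, adjusted p = 0.121, edgeR; 0.0025 in DESeq2) and means of 7.55 ± 1.20 and 18.6 ± 7.98 CPM (SD, n = 3).

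The balance of the calprotectin pair was not the same in all libraries. S100a8 had 0.486, 0.534 and 0.475 counts per count of S100a9 in AL/NP replicates 1 to 3. In controls the ratio was 0.362, 0.344 and 0.571, so control replicate 3 was above all other libraries and the other controls were below them.

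Retnlg, a resistin-like secreted protein of mouse granulocytes, was low and was highest in AL/NP replicate 3. Retnlg (chromosome 16, 48872621 to 48874496) measured 0.574, 0.525 and 0.435 CPM in control replicates 1 to 3 and 1.01, 1.13 and 2.12 CPM in AL/NP replicates 1 to 3. The groups did not overlap, and the log2 fold change was 1.47 (SE 0.389, adjusted p = 0.1398, edgeR; 0.0327 in DESeq2) on 53 counts in controls and 143 with AL/NP.

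Among the 4 surface proteins of the 10, Trem1, an activating receptor that amplifies inflammatory signalling in neutrophils and monocytes, had the largest fold change and few counts. Trem1 (chromosome 17, 48232768 to 48246924) had 5, 2 and 5 counts in control replicates 1 to 3 and 10, 20 and 21 counts in AL/NP replicates 1 to 3. That is 0.144, 0.0552 and 0.155 CPM against 0.348, 0.5504 and 0.609 CPM, without overlap. The log2 fold change was 2.08 (SE 0.503, adjusted p = 0.124, edgeR), and DESeq2 gave it no adjusted p. Trem1 reached the expression minimum in 3 AL/NP libraries and in 0 controls, so it could enter the test only by being higher with AL/NP.

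Csf3r and Cxcr2, the receptors that call neutrophils out of the marrow and into tissue, overlapped between the groups. Csf3r (chromosome 4, 126024550 to 126044440), the receptor of granulocyte colony-stimulating factor, measured 8.01, 7.82 and 17.1 CPM in control replicates 1 to 3 and 15.8, 17.3 and 26.0 CPM in AL/NP replicates 1 to 3. Control replicate 3 lay between AL/NP replicates 1 and 2. The log2 fold change was 0.842 (SE 0.329, adjusted p = 0.217, edgeR; 0.110 in DESeq2), and it was 1.31 without control replicate 3. Cxcr2 (chromosome 1, 74153989 to 74161246), the receptor of Cxcl1, Cxcl2 and Cxcl5, measured 1.52, 1.44 and 1.80 CPM in controls and 1.36, 2.39 and 5.11 CPM with AL/NP. AL/NP replicate 1 was the lowest of all 6 libraries and AL/NP replicate 3 the highest. Its log2 fold change of 0.900 (SE 0.446, adjusted p = 0.292, edgeR; 0.225 in DESeq2) was 0.248 without AL/NP replicate 3.

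Ly6g, the surface protein by which mouse neutrophils are sorted, was at the edge of detection. Ly6g (chromosome 15, 75155240 to 75159126) had 0, 0 and 5 counts in control replicates 1 to 3 and 0, 3 and 8 counts in AL/NP replicates 1 to 3. A count of 0 allowed up to 0.104 CPM in AL/NP replicate 1 and up to 0.0862 and 0.0829 CPM in control replicates 1 and 2. No difference was detectable at this depth (log2 fold change without the filter 1.08, SE 1.10, adjusted p = 0.639, edgeR). Ly6g belongs to a family of close relatives, and the split of reads among them is uncertain.

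Of the 10 genes, 7 entered the test and 0 were called at an adjusted p of 0.05, where edgeR called 0.0816% of 15939 genes. Without adjustment, 6 of the 7 had p under 0.05 and were higher with AL/NP, against 9.37% of all tested genes in that direction. DESeq2 called 4 of them (Lcn2, S100a8, S100a9 and Retnlg), and Ngp and Mpo besides, against 2.87% of its 15523 genes. The groups did not overlap in 5 of the 7, against 14.5% of tested genes for that direction. Leaving out Trem1, which passed the filter only through the AL/NP libraries, 6 genes remained, of which 5 had an unadjusted p under 0.05 and 4 did not overlap. The median log2 fold change was 1.47 over the 7 genes and 1.39 over the 6, beside -0.00025 over all tested genes. With AL/NP replicate 1 and control replicate 3 both left out, a choice made after the data were seen, 5 of the 7 were called, against 2.82% of genes called higher in that fit. AL/NP replicate 1 was the lowest AL/NP library for all 7. Control replicate 3 was the highest control for S100a8, S100a9, Trem1, Csf3r and Cxcr2. Leaving both out therefore widens the gap between the groups by construction, and those calls are no support. The counts in this paragraph describe the genes that were abundant enough to test and not all 10.

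AL/NP replicate 3 was the highest library for all 7 tested genes. Relative to the control mean, the median log2 level of the 7 genes was 0.765, 1.261 and 1.94 in AL/NP replicates 1 to 3, and -0.0514, -0.168 and 0.2505 in control replicates 1 to 3. AL/NP replicate 1 was the lowest AL/NP library for all 7, and the lowest of all 6 for Cxcr2. Without AL/NP replicate 3 the log2 fold changes were 1.43 for Lcn2, 1.18 for S100a8, 0.943 for S100a9, 1.92 for Trem1, 0.591 for Csf3r and 1.06 for Retnlg.

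**Figure D2:**
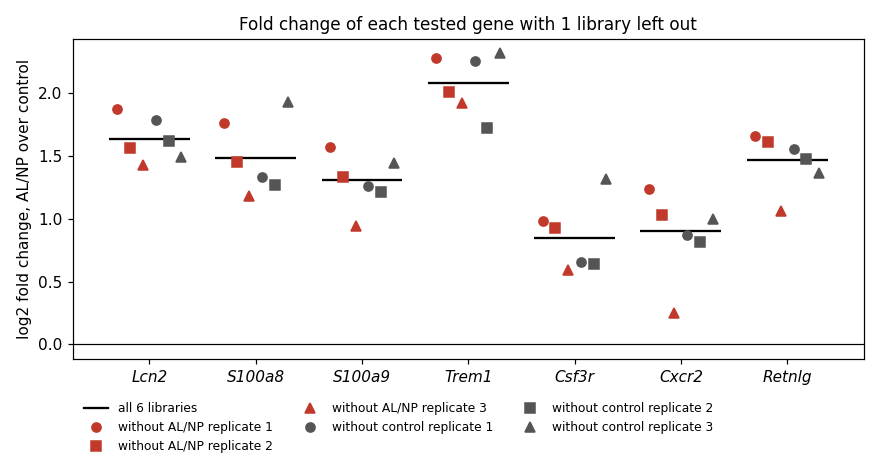
Log2 fold change of the 7 tested genes (vertical axis, AL/NP over control) with all 6 libraries (black bar) and with 1 library left out (red, an AL/NP library; grey, a control library). All points lie above 0; leaving out AL/NP replicate 3 (red triangle) moves Cxcr2 from 0.900 to 0.248, and leaving out control replicate 3 (grey triangle) moves Csf3r from 0.842 to 1.31.

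Per kilobase of exon, which allows genes to be compared, Lcn2 stood far above the rest, at 267 ± 85.9 CPM per kb (SD, n = 3) with AL/NP and 86.3 ± 17.7 in controls. With AL/NP, S100a9 followed at 35.7 ± 15.3, S100a8 at 13.3 ± 5.39, Csf3r at 5.45 ± 1.52 and Retnlg at 2.39 ± 1.03 CPM per kb. Ngp, at 1.01 ± 0.921, and Cxcr2, at 0.969 ± 0.635, did not differ beyond their spread. Mpo, at 0.2802 ± 0.256, Trem1, at 0.168 ± 0.0458, and Ly6g, at 0.111 ± 0.125 CPM per kb, were lowest and were also within each other's spread. Ngp, a product of the same granule class as Lcn2, measured 0.128 ± 0.0440 CPM per kb (SD, n = 3) in controls.

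The wider set of neutrophil genes was read from 4 lists by role, which held 40 further genes, not all of them private to neutrophils. Of the 40, 19 were abundant enough to test and 0 were called by edgeR. An unadjusted p under 0.05 was found for 11, all higher with AL/NP, against 9.37% of all tested genes in that direction. DESeq2 called 7, all higher, against 2.87% of its genes. All 19 log2 fold changes were above 0, as were 50% of those of all tested genes, with a median of 1.07. The groups did not overlap in 9, all higher, against 14.5% of tested genes. Clec4e and Ifitm6 are in each of these counts, though they entered the test mainly through the AL/NP libraries. The same shares over all genes apply to the counts of the single lists below. Stfa1, a stefin of granulocytes, had 0 counts in every library.

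**Figure D3:**
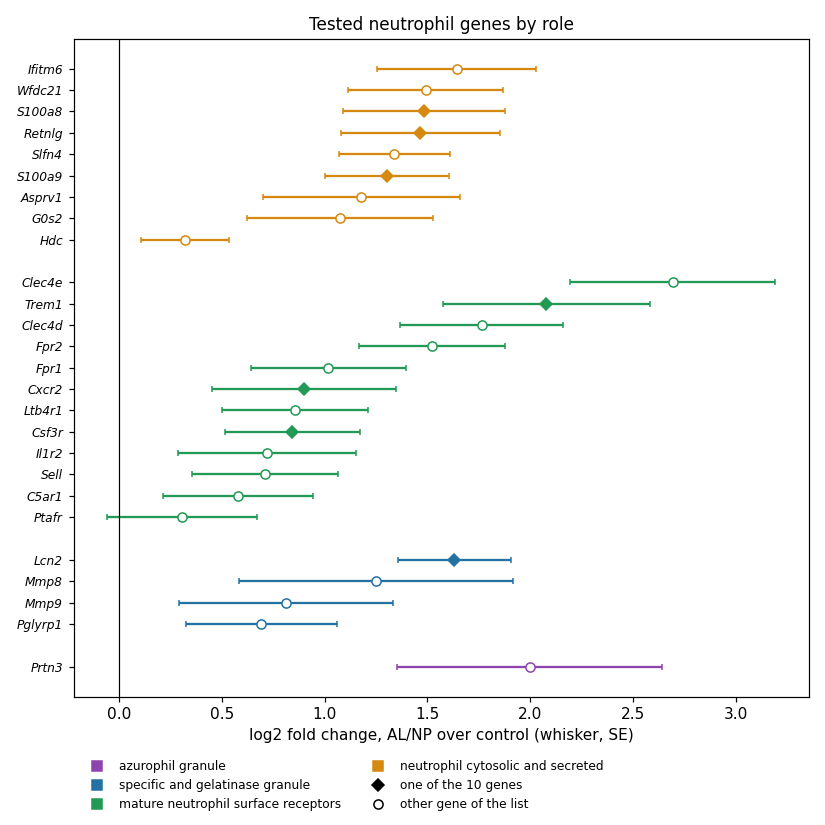
Log2 fold change (horizontal axis, AL/NP over control) with its SE for each tested gene of the 4 neutrophil lists; filled diamonds are tested genes of the 10, open circles other genes of the lists. All points lie to the right of 0, from 0.306 for Ptafr to 2.69 for Clec4e, and no gene passed the edgeR threshold over all genes.

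The azurophil granule list, of genes made mainly by early precursors, holds Mpo itself, and its sum mostly reflects Prtn3 and Mpo. The 6 genes together had 40, 29 and 26 counts in control replicates 1 to 3 and 25, 185 and 256 counts in AL/NP replicates 1 to 3. In CPM the sums were 1.15, 0.801 and 0.808 against 0.869, 5.09 and 7.43, so AL/NP replicate 1 lay among the controls and the other AL/NP libraries far above them. Prtn3, proteinase 3, was the 1 gene of this list that could be tested. It measured 0.919, 0.663 and 0.466 CPM in controls and 0.556, 3.25 and 4.38 CPM with AL/NP, with a log2 fold change of 1.997 (SE 0.646, adjusted p = 0.174, edgeR; 0.0246 in DESeq2). Elane, neutrophil elastase, and Ctsg, cathepsin G, are named here after their values were seen. Elane measured 0.0695, 0.688 and 0.812 CPM with AL/NP against 0.0829 to 0.155 in controls. Ctsg had 0, 9 and 8 counts with AL/NP and 0 in every control. The remaining genes of the list were almost undetected: Ms4a3 had 1, 2 and 4 counts with AL/NP and 1, 0 and 2 in controls, and Bpi had 2, 0 and 0 against 0, 1 and 0.

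The sum of the specific and gelatinase granule genes other than Lcn2 was likewise highest in AL/NP replicates 3 and 2. The 11 genes summed to 2.87, 1.74 and 3.79 CPM in control replicates 1 to 3 and 3.44, 7.13 and 12.6 CPM in AL/NP replicates 1 to 3. Ltf, lactoferrin, and Camp, the cathelicidin, also chosen after their values were seen, measured 1.77 and 1.04 CPM in AL/NP replicate 3 and 0.174 and 0.139 CPM in AL/NP replicate 1. Not every gene had this order: Pglyrp1 was highest in AL/NP replicate 1, at 1.36 CPM, and measured 0.881 CPM in AL/NP replicate 2 against 0.963 CPM in control replicate 3. Of the 4 tested genes of this list, 0 were called and 1, Lcn2, had an unadjusted p under 0.05. The log2 fold changes of the other tested genes were 1.25 for Mmp8 (SE 0.666), 0.812 for Mmp9 (SE 0.522), a collagenase and a gelatinase, and 0.692 for Pglyrp1 (SE 0.367), a peptidoglycan-binding protein, with adjusted p of 0.316 to 0.397 in edgeR.

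**Figure D4:**
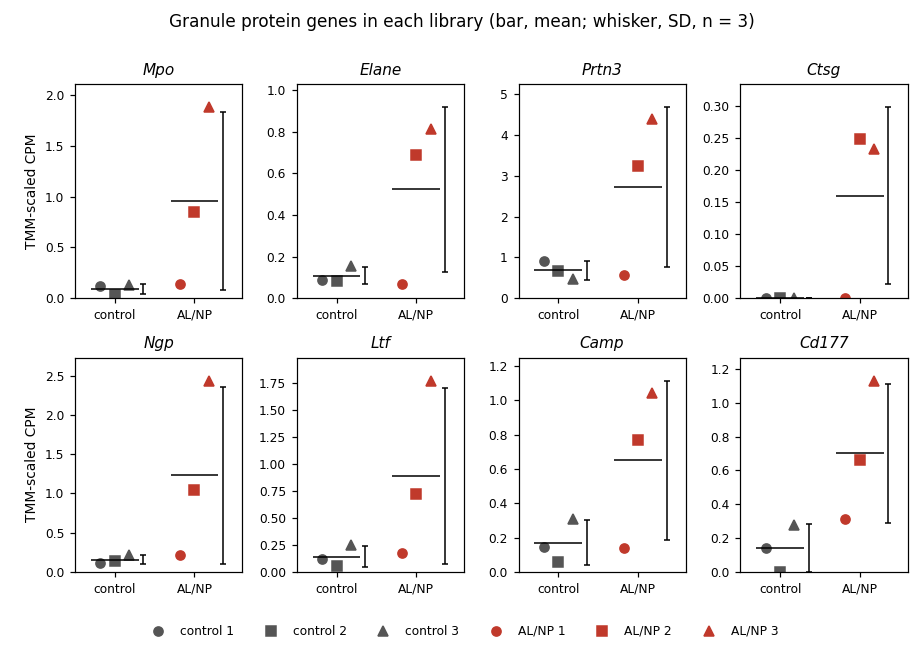
TMM-scaled CPM (vertical axes, each from 0) of 8 granule genes in the control (grey) and AL/NP (red) libraries, with the mean as a bar and the SD as a whisker (n = 3). AL/NP replicates 2 and 3 lie above all controls in each panel; AL/NP replicate 1 (red circle) is no higher than the highest control for 6 of the 8 genes and slightly above it for Mpo (0.139 against 0.124 CPM) and Cd177 (0.313 against 0.280 CPM). These genes were picked after their values were seen, apart from Mpo, Ngp and Prtn3.

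Surface receptors of mature cells summed to 19.3, 16.7 and 32.9 CPM in control replicates 1 to 3 and 32.4, 38.2 and 56.0 CPM in AL/NP replicates 1 to 3, so control replicate 3 reached AL/NP replicate 1. Of 15 genes in that list, 12 were tested, 0 were called and 7 had an unadjusted p under 0.05, all higher; DESeq2 called 3. The smallest p-values were those of Clec4e (log2 fold change 2.69, SE 0.499, adjusted p = 0.0909), Clec4d (1.76, SE 0.397, adjusted p = 0.116), Fpr2 (1.52, SE 0.355, adjusted p = 0.123) and Trem1, all from edgeR. Clec4e and Clec4d are lectin receptors for microbial glycolipids and Fpr2 senses formyl peptides. Clec4e measured 0.765, 1.596 and 1.83 CPM in AL/NP replicates 1 to 3 and 0.110 to 0.316 CPM in controls, so AL/NP replicate 1 was also above every control. Only control replicate 1 reached the expression minimum for Clec4e, and the same holds for Ifitm6, so both entered the test mainly through the AL/NP libraries.

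The cytosolic and secreted list had 17 genes in the table, of which 9 were tested, 0 were called and 8 had an unadjusted p under 0.05, all higher; DESeq2 called 6. The smallest p-values beside S100a9 were those of Slfn4 (log2 fold change 1.34, SE 0.270, adjusted p = 0.0998), Ifitm6 (1.64, SE 0.386, adjusted p = 0.124) and Wfdc21 (1.49, SE 0.375, adjusted p = 0.133), from edgeR. Wfdc21 measured 323, 195 and 208 CPM with AL/NP and 40.9 to 109 CPM in controls, and the sum of this list mostly reflects Wfdc21 and G0s2, at 378 and 124 CPM per kb over all libraries beside 25.1 for S100a9.

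The ligands of Csf3r and Cxcr2 were also measured. Csf3, the ligand of Csf3r, had 2 counts in the 3 AL/NP libraries and 1 in the 3 controls, so no difference was detectable. Of the Cxcr2 ligands, Cxcl1 measured 46.7, 81.0 and 46.5 CPM in AL/NP replicates 1 to 3 and 31.2, 24.6 and 13.2 CPM in control replicates 1 to 3 (log2 fold change 1.34, SE 0.336, adjusted p = 0.132, edgeR). Cxcl2 measured 1.81, 2.59 and 1.596 CPM against 1.03, 0.801 and 0.808 CPM (1.18, SE 0.311, adjusted p = 0.1398, edgeR). Cxcl5 had 27 counts with AL/NP and 8 in controls and was not tested. In the whole list of growth and attraction signals, 9 of 16 genes were tested, 0 were called and 5 had an unadjusted p under 0.05, all higher. Icam1, the endothelial ligand of neutrophil integrins (0.776, SE 0.133, adjusted p = 0.0787), and Il1b (1.56, SE 0.271, adjusted p = 0.0839) had the smallest p-values in edgeR.

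Transcription factors of granulocyte maturation ranged from almost undetected to well measured. Cebpe and Gfi1, which act in precursors, had 11 and 15 counts with AL/NP and 5 and 10 in controls and were too low to test. Cebpd measured 7.85, 5.78 and 6.79 CPM with AL/NP and 1.52, 2.79 and 1.83 CPM in controls (log2 fold change 1.73, SE 0.277, adjusted p = 0.0783, edgeR), and hepatocytes also express it in inflammation. Of the 10 tested factors, 0 were called and 5 had an unadjusted p under 0.05, all higher. Among these were Klf4 (1.62, SE 0.318), Runx1 (0.867, SE 0.254) and Spi1 (1.09, SE 0.367), which encodes PU.1, with adjusted p of 0.0970, 0.150 and 0.184 in edgeR. Cebpa (-0.512, SE 0.424, adjusted p = 0.512, edgeR) and Per1 (-0.198, SE 0.435, adjusted p = 0.825, edgeR) were the 2 factors with a log2 fold change below 0. The phagocyte NADPH oxidase, which makes superoxide in neutrophils and macrophages alike, had 6 tested subunit genes, 0 called and 5 with an unadjusted p under 0.05, all higher. Among these Cyba and Ncf1 measured log2 fold changes of 1.17 (SE 0.243) and 1.39 (SE 0.328), with adjusted p of 0.103 and 0.124 in edgeR.

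Genes of other cells differed in both directions. Markers of monocytes and macrophages summed to 228 to 291 CPM in controls and 452 to 606 CPM with AL/NP; of 12 tested, 0 were called, 9 had an unadjusted p under 0.05, all higher, and Mpeg1 (log2 fold change 1.20, SE 0.166, adjusted p = 0.0579, edgeR) led. Their part in the levels of S100a8, S100a9, Trem1 and Csf3r was not tested. Acute phase genes of hepatocytes summed to 10004 to 12986 CPM in controls and 19288 to 21980 CPM with AL/NP. Of 14 tested, 3 were called higher (Saa1, Orm2 and Orm3, adjusted p = 0.0493, edgeR) and 12 had an unadjusted p under 0.05, all higher. Hamp alone had a log2 fold change below 0 (-0.336, SE 0.315, adjusted p = 0.561, edgeR). Saa1, serum amyloid A1, measured 353, 1096 and 1279 CPM in AL/NP replicates 1 to 3, with replicate 1 lowest as for Lcn2. The part of hepatocytes in the level of Lcn2 was not tested. In other lists more log2 fold changes lay below 0 than above: 6 of 8 tested genes of stellate cells and myofibroblasts (median -0.38), 4 of 6 of B and plasma cells (median -0.32) and 5 of 6 of hepatocytes (median -0.28), with 0 called in each.

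Markers of other granulocytes and of blood were examined in the same way. Of 8 eosinophil genes, Prg3 and Ear6 had 0 counts everywhere and Epx had 3 counts with AL/NP and 2 in controls. The summed level was 1.77 to 3.42 CPM in controls and 1.01 to 1.80 CPM with AL/NP, and mostly reflects Ccr3. Among the untested genes, Siglecf had 19 counts with AL/NP and 10 in controls, and Il5ra had 4 and 0. Prg2 had 1 count with AL/NP and 3 in controls, and Ear1 had 9 and 11. The 1 gene tested, Ccr3, measured a log2 fold change of -1.24 (SE 0.340, adjusted p = 0.144, edgeR). Mast cell and basophil genes summed to 0.144 to 0.276 CPM in controls and 0 to 0.174 CPM with AL/NP, and 0 of 8 could be tested. Red cell genes, a measure of blood in the tissue, summed to 438 to 890 CPM in controls and 379 to 969 CPM with AL/NP. The highest red cell sum was in AL/NP replicate 1 and the lowest in AL/NP replicate 2. Of the 6 red cell genes tested, 0 were called and 1, Slc4a1, an anion exchanger of maturing red cells, had an unadjusted p under 0.05 (log2 fold change 2.75, SE 0.665, adjusted p = 0.124, edgeR). Slc4a1 reached the expression minimum in 3 AL/NP libraries and in 0 controls (0.0552 to 0.217 CPM), so it too could enter the test only by being higher with AL/NP. Platelet genes summed to 8.62 to 12.4 CPM in controls and 13.2 to 21.1 CPM with AL/NP, without overlap. That sum mostly reflects Itga2b and Pf4, which each overlapped between the groups. Of 2 platelet genes tested, 0 were called and 1, Itga2b, had an unadjusted p under 0.05 (log2 fold change 0.739, SE 0.302, adjusted p = 0.231, edgeR). T and NK cell genes summed to 3.09 to 4.72 CPM in controls and 4.29 to 20.1 CPM with AL/NP. Cd3e, a CD3 subunit of the T cell receptor complex, made up 16.6 of the 20.1 CPM in AL/NP replicate 1. Kupffer cell genes summed to 50.3 to 79.0 CPM in controls and 75.5 to 114 CPM with AL/NP, and of 6 tested, 0 were called, 2 had an unadjusted p under 0.05 higher and 1 lower. The part of blood and of these cells in the levels of the 10 genes was not tested.

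**Figure D5:**
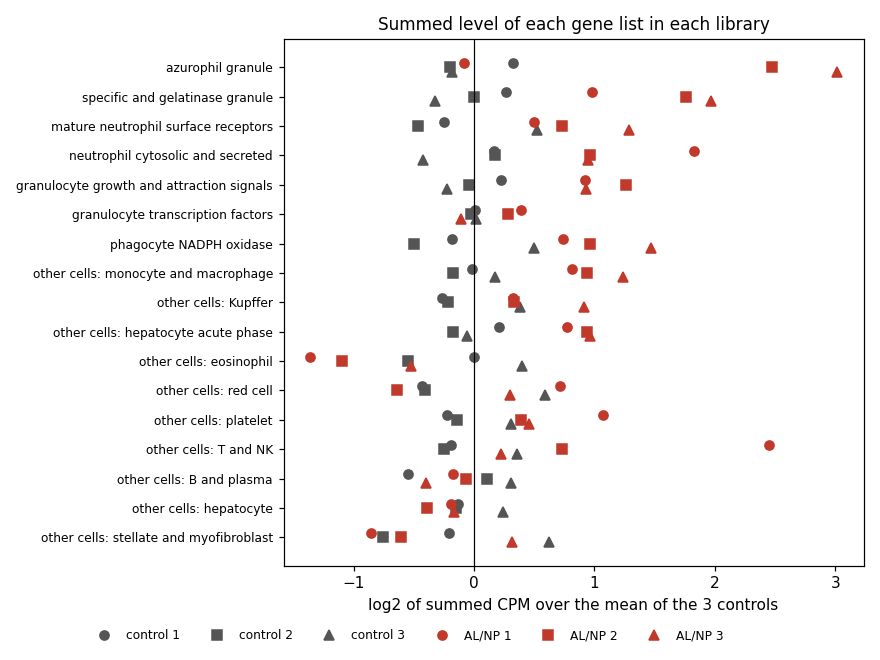
Summed CPM of each gene list in each library, as log2 over the mean of the 3 controls (horizontal axis; grey, control; red, AL/NP; marker shape, replicate number); mast cell and basophil genes are left out because their sums were near 0. Sums follow the most abundant gene of a list. In the azurophil granule list AL/NP replicates 2 and 3 stand far to the right at 5.09 and 7.43 CPM and AL/NP replicate 1 lies among the controls at 0.869 CPM.

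Genes whose pattern over the 6 libraries was most like that of each tested gene were found among 12165 named genes with at least 1 CPM, by the mean absolute difference of centred log2 CPM. Among the 10 themselves, the closest pairs were Lcn2 with Retnlg, at a difference of 0.192, and S100a8 with S100a9, at 0.235; the farthest was Trem1 with Cxcr2, at 0.569. The nearest genes were Thbd, Gbp2 and Adgre4 for Lcn2 (0.147 to 0.218), Pirb, Ms4a4a and Clec4d for S100a8 (0.120 to 0.145), and Ptprc, Clec4a3 and Dram1 for S100a9 (0.0904 to 0.107). They were Il1b, Fcgr4 and Fpr2 for Trem1 (0.145 to 0.152), Cd74, Bin2 and Arhgap9 for Csf3r (0.0585 to 0.0787), Ifi202b, Dock11 and Srgn for Cxcr2 (0.138 to 0.169), and Sept5, Thbd and Adgre4 for Retnlg (0.117 to 0.139). Of these, Ptprc is the pan-leukocyte antigen CD45, Cd74 the invariant chain of MHC class II, and Adgre4, Pirb and Fcgr4 are receptors of myeloid cells. These are descriptions of 6 libraries, with no test.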

How the data were processed

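The deposited table held raw read counts per Ensembl gene, with 1 column per library and no normalization; the unit follows from the values. GRCm38, STAR 2.6.1a, featureCounts and DESeq2 1.26.0 are named, without their roles, per the submitters' processing notes; the strand setting, annotation release and treatment of multi-mapping reads are not given in the sources used here. Symbols were found for 40254 of 41388 identifiers. Coordinates and exon lengths came from GENCODE M21 (GRCm38), and promoters from RefSeq (GRCm38.p6), which held all 10 genes.

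Groups were compared with edgeR 4.0.16 in R 4.3.3 (quasi-likelihood test with robust estimation and TMM). Of all identifiers, 15939 passed filterByExpr at a minimum count of 10, and Benjamini-Hochberg adjustment ran over these, with 0.05 as the threshold. Each SE was derived from the F statistic, by dividing the size of the log2 fold change by its root. Alternatives were DESeq2 1.42.0, limma-voom (limma 3.58.1), DESeq2 size factors, library totals, other filters, no robust estimation, a replicate block, each library left out and mitochondrial genes left out; leaving out AL/NP replicate 1 and control replicate 3 together was added after the data were seen. The text names the 10 genes, every called gene or else up to 4 tested genes with the smallest p-values per list, and the 3 nearest patterns per tested gene, passing over predicted genes. For most lists fewer than 4 are named. Elane, Ctsg, Ms4a3, Bpi, Ltf, Camp, Cd177, Csf3, Cxcl5, Cebpe, Gfi1, Cebpa, Per1, Hamp, Epx, Prg3, Ear6, Siglecf, Il5ra, Prg2, Ear1, G0s2, Ptafr and Alb fall outside this rule and were chosen after their values were seen. The genes and lists were chosen with earlier results of these data known. Il36g and Ahsp had no row in the table. No 2 libraries were duplicates (lowest chi-square 30.6 per degree of freedom). On data simulated for this comparison (15791 genes), edgeR called 51.5% of the 99 genes given a 2-fold change, and for the 100 genes given a 4-fold change the share was 94%. That simulated fit called 152 genes in all, against 13 in the real data, so these shares need not hold here. In the real data Clec4e (log2 fold change 2.69, adjusted p = 0.0909, edgeR) and Trem1 (2.08, adjusted p = 0.124, edgeR) missed the threshold.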

Additional observations from a re-analysis of the deposited data

How the results depend on the processing

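The log2 fold changes of all 7 tested genes stayed above 0 under every alternative run, and their median ranged from 1.06 without AL/NP replicate 3 to 1.705 with AL/NP replicate 1 and control replicate 3 both left out. Whether genes passed the threshold depended on the tool and filter. The edgeR count of 13 genes became 883 in DESeq2, 747 with no filter beyond 1 count, 720 with those libraries both left out, and 0 with library totals as the only scaling (which moved the median of all genes to 0.133), with at least 50 counts in 3 libraries and without robust estimation; with single libraries left out it ranged from 0 to 4. Of the 7 tested neutrophil genes, 4 were called in DESeq2 (log2 fold changes 1.63 for Lcn2, 1.49 for S100a8, 1.31 for S100a9, 1.47 for Retnlg). DESeq2 also called Ngp and Mpo, which are outside those 7, and it called 2.87% of its 15523 genes higher. With no filter 7 of all 10 genes were called, namely Ngp, Mpo, Lcn2 (1.63), S100a8 (1.49), S100a9 (1.31), Trem1 (2.08) and Retnlg (1.47). That fit called 1.27% of 29551 genes higher. With both libraries left out, a choice that widens the gap between the groups, 5 were called: Lcn2 (1.72), S100a8 (2.20), S100a9 (1.705), Trem1 (2.51) and Csf3r (1.44). In that fit 2.82% of 15939 genes were called higher. No setting called Cxcr2. With single libraries left out, 0 were called in each case, and 5 to 7 had an unadjusted p under 0.05. The cause of these shifts was not tested. At least 50 counts in 3 libraries removed Trem1 and Retnlg.

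With the replicate number as a block, 23 genes and 0 of the neutrophil genes were called, and Csf3r had an adjusted p of 0.0736. Deviations of same-numbered libraries from their groups were hardly correlated (-0.0548, 0.0427 and 0.0752), which cannot exclude a shared batch or run. With the block the SE was smaller for S100a8, S100a9, Csf3r and Cxcr2 and larger for Lcn2, Trem1 and Retnlg. Whether the numbers pair the libraries was not settled. At this depth Ly6g, Mpo, Ngp and Trem1 rest on few counts.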
